A study of Homo sapiens with 4 samples.

Results

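HT-29 is an established human colorectal adenocarcinoma line, and 2 of the 4 arrays in the series carry its RNA; the other 2 carry RNA of DLD-1, another colorectal cancer line. The HT-29 arrays were chosen by title, which names the line on both. Cells were cultured in RPMI1640 for 24 h, then kept for 96 h in 1 µM 5-aza-2'-deoxycytidine, and the comparison group was untreated HT-29. Both RNAs shared each slide, one in Cy3 and the other in Cy5, and the dyes were exchanged on array 2. The labels do not say that the arrays came from separate cultures, so they were counted as 1 replicate: each value is a mean ± SD over 2 hybridisations, the SD covers hybridisation and dye only, and no test was possible.

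5-aza-2'-deoxycytidine is a cytidine analogue that is built into DNA during replication, where it traps DNA methyltransferases, so that methylation at CpG dinucleotides is lost as cells divide. Cancer-testis antigens, normally transcribed in male germ cells and silenced in other tissues by promoter methylation, are its best known targets in cancer cells. Colorectal lines also keep parts of the enterocyte and goblet cell programme of the epithelium they derive from. DNA methylation was not among the measurements described here.

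The labels give channel 1 as untreated (Cy3) and channel 2 as treated (Cy5) on array 1, and channel 1 as treated (Cy3) and channel 2 as untreated (Cy5) on array 2, but the scanner columns name no dye. The counts of called probes and the gene lists are therefore given under both readings. In the first, channel 2 holds treated RNA on both arrays; it leads here as a working reading, chosen in earlier work with the strongest probes in view, so the genes at its top do not support it. In the other, the channel order of the labels holds and the sign of array 2 is turned. A probe that is high in channel 2 on both arrays is raised under the first reading and has no shared sign under the other, so no probe can be called under both.

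Of 29640 probes that were not controls, 22646 had a channel above local background on both arrays, and 12019 of these carried the name of 1 gene, for 10385 genes. Across these probes the log2 ratios of channel 2 over channel 1 had r = 0.02 between the arrays (a description over probes that share slides and printing, not independent samples), and their SD was 0.51 on array 1 and 0.52 on array 2. A probe was called raised or lowered where it differed at least 2-fold in the same direction on both arrays. With channel 2 as treated, 26 probes were raised, 0.115% of those measured, and 3 were lowered, 0.0132%. In the labels' order 69 were raised, 0.305%, and 1 was lowered, 0.00442%. At 1.5-fold the counts were 329 raised (1.45%) and 131 lowered (0.578%) under the first reading, and 533 (2.35%) and 179 (0.79%) under the other.

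**Figure D1:**
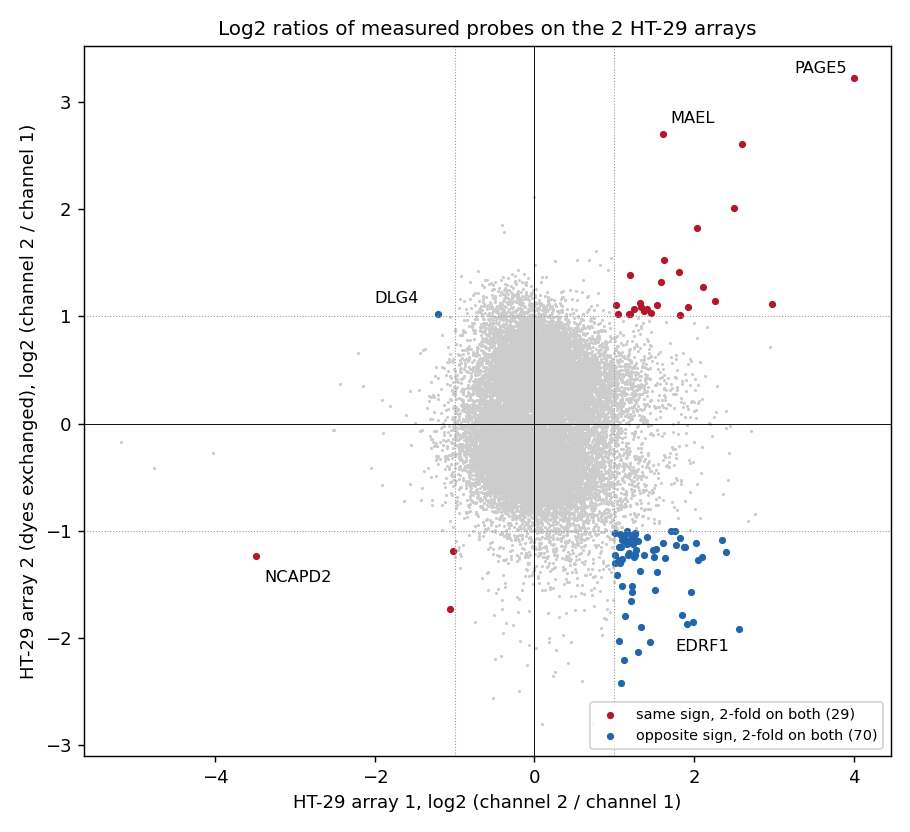
Log2 ratio of channel 2 over channel 1 on HT-29 array 1 (x axis) and array 2 (y axis) for 22646 measured probes, 1 point each; dotted lines mark 2-fold. The 29 red probes have the same sign and at least 2-fold on both arrays and are called when channel 2 is read as treated on both; the 70 blue probes have opposite signs and are called in the labels' order.

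The counts followed the position of probes on the slide. The slide has 48 printed blocks in 4 columns and 12 rows, and block accounted for 23.1% of the variance of the log2 ratios on array 1 and 50.9% on array 2. On array 2 the median log2 ratio was −0.32 and −0.35 in block columns 1 and 2 but 0.45 and 0.32 in columns 3 and 4. Of the 26 probes raised with channel 2 as treated, 24 (92.3%) lay in columns 3 and 4, against 50.5% of all measured probes. Of the 69 raised in the labels' order, 62 (89.9%) lay in columns 1 and 2. With block medians set to 0 the counts became 11 raised and 5 lowered under the first reading and 33 and 1 under the other. Under the first reading 9 of the 11 were also among the 26, and the named ones were PAGE5, CTSE, HLA-F, MAEL, GAGE12F, FABP1 and XAGE1B. Of the 5 lowered, 2 were among the original 3, NCAPD2 and PIR, so ANXA13 was no longer called. In the labels' reading, 20 of the 33 raised were also among the 69, and the 1 lowered probe was a different one, so DLG4 was no longer called.

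**Figure D2:**
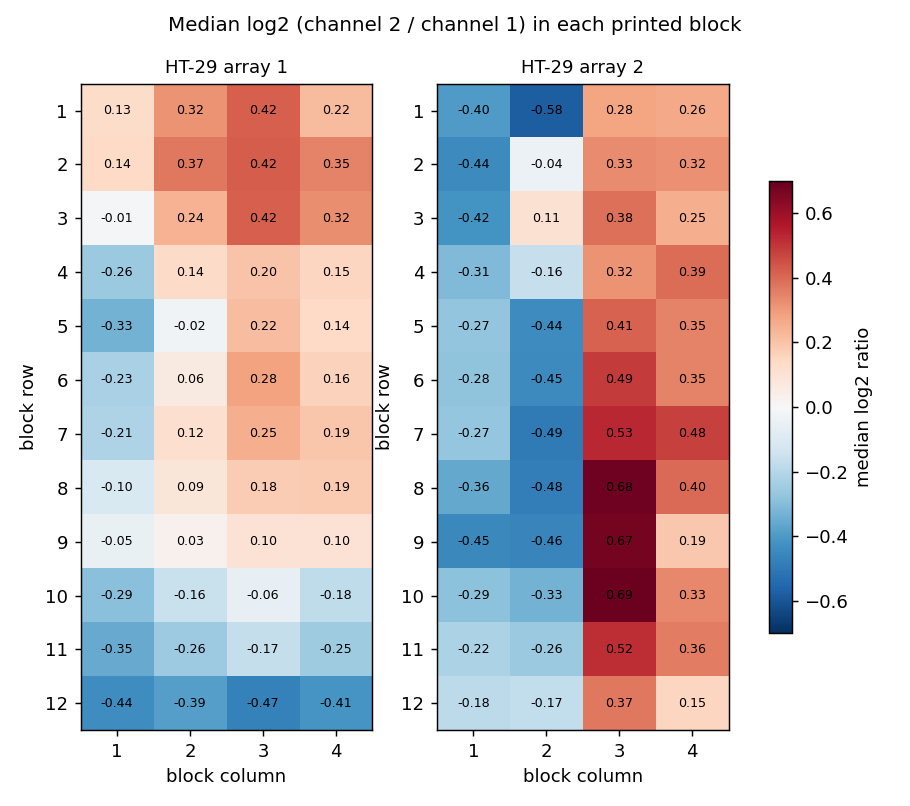
Median log2 ratio of channel 2 over channel 1 in each of the 48 printed blocks of the HT-29 arrays, by block column (x axis) and block row (y axis); colour gives the median on a log2 scale. Array 2 runs from −0.58 to 0.69 with the sign set mostly by column, and array 1 from −0.47 to 0.42 with its lowest blocks in row 12.

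With channel 2 read as treated, the 26 raised probes included 15 named ones, for 14 genes. They included 4 germ-cell genes, 3 genes of the differentiated intestinal epithelium and single genes of interferon response, complement control and protein folding. PAGE5, an X-linked cancer-testis antigen, was 12.2-fold higher, the largest mean ratio among the called genes. Its background-subtracted intensity was 265 in channel 1 and 7361 in channel 2 on array 1, and 432 and 6962 on array 2. After normalisation the log2 ratios were 4.004 and 3.22 (mean 3.61 ± 0.56), and channel 2 was far brighter on both slides. Read in the labels' order, the same 2 ratios average 0.39.

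MAEL, which takes part in piRNA silencing of transposons in the germ line, had intensities of 168 and 1119 in channels 1 and 2 on array 1 and 73.8 and 1902 on array 2. Its log2 ratios were 1.61 and 2.70, a mean of 4.45-fold, with channel 1 above background on 1 of the 2 arrays. XAGE1B, another cancer-testis antigen (listed under the older symbol XAGE1D), went from 1067 to 5142 on array 1 and from 2024 to 6337 on array 2, with log2 ratios of 2.12 and 1.27. GAGE12F (listed as GAGE7) went from 5527 to 21566 and from 6687 to 16253, with log2 ratios of 1.63 and 1.52. Both lie in families of near-identical X-linked copies, so which copy the probe measured is uncertain. The channel ranges of all 4 of these genes did not overlap between channels 1 and 2. A call at 2-fold on both arrays favours such separation, and the share over all probes was not counted.

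Of 79 genes on the cancer-testis and germline list, 35 were measured. These 4 were raised 2-fold (11.4% of the 35, against 0.116% of the 10385 genes), and none was lowered. Positive ratios on both arrays were found for 17 of the 35 (48.6%, against 28.0% of all genes) and negative ratios on both for 7 (against 28.4% of all genes). The list's median log2 ratio was 0.30, against −0.00 for all genes. VCX had log2 ratios of 1.79 and 0.34 and TDRD1, a Tudor protein of the piRNA pathway, 1.80 and 0.00, so each was past 2-fold on array 1 only. MAGEA3 had 1.19 and −0.41, SSX1 had −1.21 and 0.42, and PAGE4 had −0.58 and −0.98, so members differed in direction. Read by the labels, its median was −0.04, with 2 genes positive and 9 negative on both arrays (5.71% and 25.7%, against 25.7% and 18.0% of all genes in that reading), and with block medians set to 0 it was 0.11 under the first reading and 0.04 under the other.

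Genes of the intestinal epithelium were another group. CTSE, the aspartic protease cathepsin E of gastric and intestinal surface cells, was not above background in channel 1 on either array, at −132 and −17.9 after subtraction, while channel 2 read 556 and 1272. It was at least 2.86-fold higher in channel 2, a bound set against the lowest signal that counted as above background; the measured log2 ratios were 2.61 and 2.60. A second CTSE probe gave 1.04 and −0.14, with both channels above background on both arrays. FABP1, the liver-type fatty acid binding protein of enterocytes, went from 257 to 1363 on array 1 and from 442 to 1604 on array 2, with log2 ratios of 1.59 and 1.32. KRT20, a keratin of differentiated surface enterocytes, went from 544 to 3437 and from 6366 to 12647, with log2 ratios of 2.26 and 1.14. These 3 probes read the same way on both slides, as the call requires. Of the 3, only those of FABP1 and KRT20 had channel 1 above background on any array.

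Of 68 listed differentiation genes 56 were measured: 3 were raised 2-fold and 1 was lowered (5.36% and 1.79%, against 0.116% and 0.0289% of all genes). CTSE counted as raised by the mean of its 2 probes (1.82 and 1.23), which disagreed in sign on array 2. The lowered one was ANXA13, an annexin of intestinal epithelium, at −1.05 and −1.73 (−0.85 and −1.47 with block medians set to 0). The list as a whole had a median of 0.02. Ratios were positive on both arrays for 16 genes and negative for 17 (28.6% and 30.4%, against 28.0% and 28.4% of all genes). TFF1, a mucosal trefoil peptide, had 1.07 and 0.45, and CEACAM6, an adhesion molecule of colonic epithelium, 0.79 and 0.69. Others went the opposite way or split, such as LGALS4 (0.05 and −1.20), the mucin MUC12 (−0.55 and −0.36) and APOB (1.26 and −0.85). The other reading gave a median of 0.20, and AGR2, APOB and MYO1A were raised 1.5-fold, 3 of 56 against 2.44% of all genes.

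**Figure D3:**
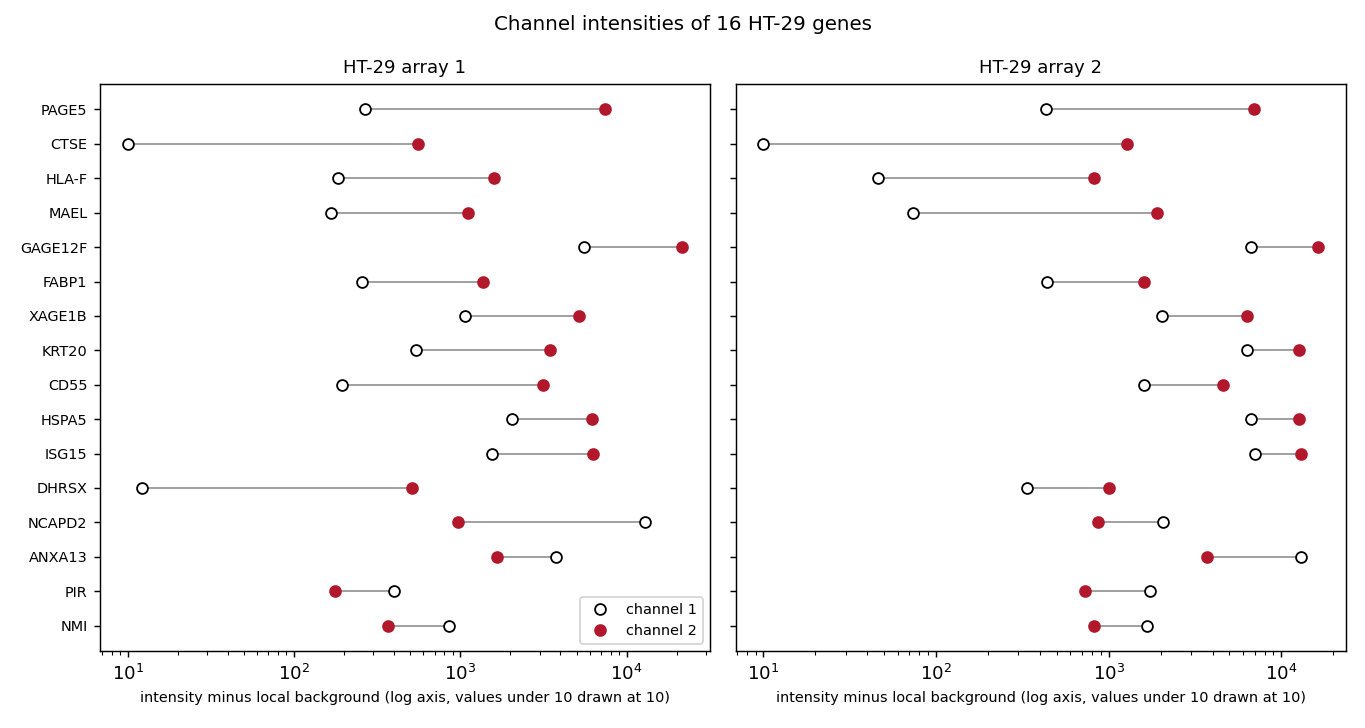
Background-subtracted intensity (x axis, log scale) in channel 1 (open) and channel 2 (filled) of both HT-29 arrays for the 12 highest and the 4 lowest ranked genes with channel 2 read as treated; values under 10, negative ones included, are drawn at 10. For each gene the channels keep the same order on both arrays, as the ranking requires; PAGE5 goes from 265 to 7361 on array 1 and from 432 to 6962 on array 2.

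The sequence before the start site was read for these genes because the drug acts on CpG methylation. The 250 bases upstream of each start in RefSeq (GRCh38.p14) are printed 5′ to 3′ on the gene's strand for the highest ranked germ-cell gene and for the 3 epithelial genes, with every CG in capitals. PAGE5 (chrX:55220096-55220345, plus strand) holds 9 CG. CTSE (chr1:206023896-206024145, minus strand) holds 6, FABP1 (chr2:88128063-88128312, minus strand) 4, and KRT20 (chr17:40885243-40885492, minus strand) 2.
PAGE5: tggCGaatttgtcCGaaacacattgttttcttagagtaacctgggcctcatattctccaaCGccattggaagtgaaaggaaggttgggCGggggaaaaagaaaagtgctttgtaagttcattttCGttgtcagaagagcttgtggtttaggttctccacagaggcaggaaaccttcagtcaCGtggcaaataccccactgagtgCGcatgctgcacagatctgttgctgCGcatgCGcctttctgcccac
CTSE: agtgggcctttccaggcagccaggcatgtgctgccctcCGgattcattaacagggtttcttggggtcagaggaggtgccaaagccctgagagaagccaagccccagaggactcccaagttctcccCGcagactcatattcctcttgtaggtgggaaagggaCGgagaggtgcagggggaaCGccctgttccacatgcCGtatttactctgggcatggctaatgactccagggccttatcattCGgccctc
FABP1: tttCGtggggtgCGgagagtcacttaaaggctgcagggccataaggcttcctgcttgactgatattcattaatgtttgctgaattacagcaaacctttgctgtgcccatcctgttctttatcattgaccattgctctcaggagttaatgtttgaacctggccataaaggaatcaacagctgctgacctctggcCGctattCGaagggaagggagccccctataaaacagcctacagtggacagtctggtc
KRT20: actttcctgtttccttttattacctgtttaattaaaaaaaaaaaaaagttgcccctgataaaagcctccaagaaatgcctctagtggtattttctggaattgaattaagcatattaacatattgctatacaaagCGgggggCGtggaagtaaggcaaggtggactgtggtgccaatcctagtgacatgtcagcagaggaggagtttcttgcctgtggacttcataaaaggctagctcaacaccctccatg
The letters searched were CG, which reads the same on both strands, and 93.9% of all 35116 tabulated windows of this length hold at least 1.

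For the 14 raised genes the median was 10.2 CG per 250 bases, against 19.0 for the 8327 measured genes with a tabulated start. Counts under 5 were found for 3 of the 14 (21.4%, against 12.5% of measured genes), namely FABP1, KRT20 and CCT8L2. The CCT8L2 probe carries the description of another gene, so its assignment is uncertain. MAEL stood at the other end with 36.5, the mean of 2 tabulated starts, and DHRSX had 24.0. Of 143 genes with a probe raised 1.5-fold, 124 had a tabulated start, and their median was 19.0, the same as for all measured genes. Under the labels' reading the 26 raised genes with a tabulated start had a median of 23.0. These counts describe sequence and say nothing of whether a site was methylated.

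The other raised genes came from several functions. HLA-F, a non-classical MHC class I molecule, was not above background in channel 1 on either array (184 and 46.2 after subtraction, against 1602 and 826 in channel 2) and was at least 3.17-fold higher in channel 2. Its log2 ratios were 2.04 and 1.82, and its second probe read −0.78 and −0.31, the opposite direction; HLA genes resemble each other closely, so its value is uncertain. CD55, which protects cells from complement by speeding the decay of its convertases, had 3 probes, with log2 ratios of 2.98 and 1.11, 1.41 and 1.07, and 0.61 and 0.83. All 3 were positive on both arrays and 2 passed 2-fold; CD55 was the only 1 of the 4 raised genes with further measured probes for which all probes agreed in sign. The first of these probes went from 193 to 3155 on array 1 and from 1605 to 4567 on array 2.

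ISG15, a ubiquitin-like interferon-induced protein, went from 1542 to 6242 on array 1 and from 6995 to 12940 on array 2, with log2 ratios of 1.93 and 1.08. HSPA5, an abundant chaperone of the endoplasmic reticulum lumen, went from 2045 to 6148 and from 6646 to 12673, with 1.53 and 1.10. DHRSX, a short-chain dehydrogenase, was not above background in channel 1 on either array and was at least 2.18-fold higher in channel 2 (1.46 and 1.04). CCT8L2, a chaperonin-like gene, had 1.18 and 1.02. The description of its probe names a potassium channel subunit-like gene instead, so what the probe measured is uncertain. PHF8, a histone demethylase, had 1.02 and 1.11, and its other probes had −0.62 and 0.15, and 0.29 and −0.29, so they gave no shared direction. Channel 2 was the brighter on both slides for each of these 5 called probes, as the call requires.

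Just outside the threshold on array 2 lay DEAF1, a transcription factor, at 1.30 and 0.98, APOC2 of triglyceride-rich lipoproteins at 1.44 and 0.96, and KRT23, an epithelial keratin, at 2.00 and 0.94. MAN1A1, an N-glycan mannosidase, had 0.93 and 0.94, RGCC 1.33 and 0.91, and C4BPB, the beta chain of the complement inhibitor C4-binding protein, 2.17 and 0.90. The lowest ranked probe inside the threshold, which is unnamed, had 1.83 and 1.01. All 6 named genes were positive on both arrays, as the ranking requires, with an SD between arrays of 0.23 for DEAF1 and 0.75 for KRT23.

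**Figure D4:**
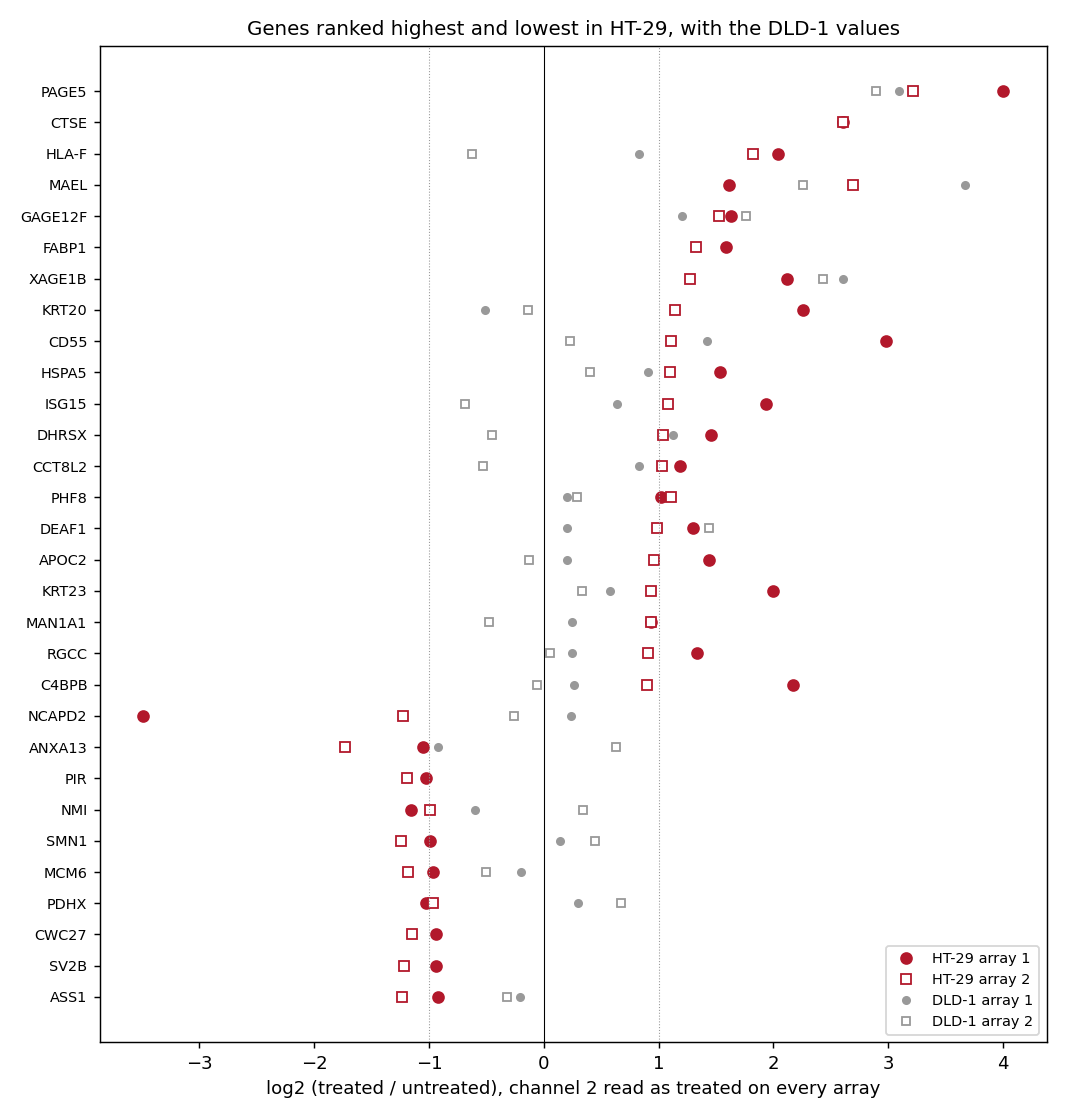
Log2 ratio (x axis, channel 2 read as treated throughout) of the 20 highest and 10 lowest ranked genes in HT-29 (y axis), 1 mark per array; DLD-1 arrays are drawn in grey where the probe was measured there, and dotted lines mark 2-fold. PAGE5, MAEL, GAGE12F and XAGE1B are past 2-fold on all 4 arrays, while KRT20 is positive on both HT-29 arrays and negative on both DLD-1 arrays.

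NCAPD2, ANXA13 and PIR were lowered. NCAPD2, a condensin subunit that compacts mitotic chromosomes, went from 12871 in channel 1 to 974 in channel 2 on array 1 but only from 2068 to 871 on array 2, with log2 ratios of −3.49 and −1.23 (mean −2.36 ± 1.60). ANXA13 went from 3741 to 1663 and from 13050 to 3727. PIR, an iron-binding nuclear protein and NRF2 target, went from 398 to 176 and from 1740 to 726, with −1.02 and −1.19. Below the threshold on 1 array were NMI, which binds MYC proteins and STATs (−1.16 and −0.99), SMN1 (−0.99 and −1.24) and the replicative helicase subunit MCM6 (−0.96 and −1.18). So was PDHX of the pyruvate dehydrogenase complex (−1.03 and −0.96), 1.99-fold lower as measured, with channel 2 not above background on either array. CWC27, SV2B and ASS1, the arginine-synthesis enzyme argininosuccinate synthase, had −0.94 and −1.15, −0.94 and −1.22, and −0.93 and −1.23. Second probes gave smaller ratios for CWC27 (−0.13 and −0.43) and ASS1 (−0.13 and −0.52). SMN1 has a near-identical copy in the genome, so its value is uncertain.

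Genes of DNA replication and mitosis had negative list medians under the first reading. Of 39 measured replication genes, 0 were raised and 4 were lowered 1.5-fold on both arrays (10.3%, against 0.982% raised and 0.616% lowered of all genes), and the median was −0.25. The 4 were MCM6, GMNN, the licensing inhibitor geminin (−0.85 and −0.88), TYMS, thymidylate synthase (−0.67 and −0.78), and POLD3, a subunit of DNA polymerase delta (−0.60 and −0.67). PCNA, the sliding clamp, had −0.39 and −1.16, and PCLAF, its binding partner, −0.41 and −1.65, both larger in size on array 2. Negative ratios on both arrays were found for 19 of the 39 (48.7%, against 28.4% of all genes) and positive ones for 6 (15.4%, against 28.0%). MCM4, another helicase subunit, was among those 6, at 0.44 and 0.51.

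Of 40 mitosis genes, 1 was raised and 3 were lowered 1.5-fold (2.5% and 7.5%, against 0.982% and 0.616% of all genes), with a median of −0.17. Besides NCAPD2, the lowered ones were the proliferation antigen MKI67 (−0.75 and −1.85) and NUSAP1, a spindle protein (−0.60 and −0.89). CDK1, the kinase that drives entry into mitosis, had −0.50 and −2.19, and CCNB2, a cyclin that binds it, −0.39 and −1.95. Both ratios were larger in size on array 2, with SDs of 1.20 and 1.10. The raised gene was FOXM1, a transcription factor of mitotic genes, at 0.68 and 0.75. Neither list kept its negative median in the labels' order. The replication median was 0.00, and CHAF1B was the 1 lowered 1.5-fold (−0.73 and −0.64), 2.56% against 0.645% of all genes. The mitosis median was 0.13, and 0 were called. With block medians set to 0 the first reading gave −0.11 for replication and −0.15 for mitosis, beside −0.12 for ribosomal protein genes and −0.13 for housekeeping genes.

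Other lists with positive medians under the first reading were those of NRF2 targets, interferon-stimulated genes and antigen presentation. Of 26 measured NRF2 antioxidant targets, 13 were positive and 3 negative on both arrays, where 28.0% and 28.4% of all genes were, with a median of 0.21. GSTM3, a glutathione transferase, was the 1 raised 1.5-fold (0.68 and 1.53), and PIR was the 1 lowered, each 3.85% against 0.982% and 0.616% of all genes. This median turned to −0.13 with a loess fit within each block and was 0.06 with block medians set to 0. The labels' reading gave 0.06, and PRDX1, a peroxiredoxin, was the 1 raised 1.5-fold (1.13 and 0.65), 3.85% against 2.44% of all genes.

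Of 35 interferon-stimulated genes 3 were raised 1.5-fold (8.57%, against 0.982% of all genes) and 1 was lowered (2.86%, against 0.616%), with a median of 0.14. The raised ones were ISG15, UBE2L6, the conjugating enzyme for ISG15 (1.08 and 0.75), and SP110, a nuclear body protein (1.20 and 0.60). The lowered one was NMI. USP18, which removes ISG15 from proteins, had 0.76 and 0.39, IFIT1 had 0.73 and 0.24, IRF9, a subunit of the interferon-activated transcription factor, had −0.31 and 0.53, and CXCL11 had −0.51 and −0.45. Under the labels' reading 0 were raised or lowered 1.5-fold and the median was 0.11. Of 21 genes of MHC and antigen presentation 2 were raised 1.5-fold (9.52%, against 0.982%), B2M, the light chain of MHC class I (1.34 and 0.89), and HLA-F by the mean of its disagreeing probes (0.63 and 0.75). TAP1, the peptide transporter, had 0.53 and 0.49, and CIITA, the MHC class II transactivator, 0.32 and 0.75. The median of these genes was 0.14, and 0.08 in the labels' reading, where 0 were called. Under the first reading it was 0.05 with block medians set to 0 and 0.06 with a loess fit within each block. The interferon-stimulated median was 0.15 and 0.08 in those settings.

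Of 27 complement genes 3 were raised 1.5-fold (11.1%, against 0.982% of all genes), CD55, C4BPB and C4BPA, the alpha chain of C4-binding protein (0.76 and 0.79), and none was lowered. Their median was 0.03. In the labels' reading it was −0.01, and C9 was the 1 raised (0.74 and 0.77), 3.7% against 2.44% of all genes. Of 28 endoplasmic reticulum stress genes 2 were raised (7.14%, against 0.982% of all genes, median 0.05), HSPA5 and its cofactor DNAJB11 (0.67 and 0.60). PPP1R15A, which reverses the translation block of the stress response, had 0.80 and 0.52. ASNS, asparagine synthetase, had −0.11 and −1.36. The labels' reading gave a median of 0.08 and also 2 raised 1.5-fold (7.14%, against 2.44% of all genes), SEC61B of the translocon (1.25 and 1.07) and MANF (0.78 and 0.85). Of 24 annexins and S100 proteins 1 was raised, ANXA1 (1.46 and 0.63), and ANXA13 was lowered. Each was 4.17%, against 0.982% raised and 0.616% lowered of all genes. The median was 0.14, but 0.02 with block medians set to 0 and 0.03 with a loess fit within each block. In the labels' reading the median was 0.25. ANXA6 (0.96 and 1.38) and S100B (1.36 and 0.64) were raised there (8.33%, against 2.44% of all genes).

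Genes often reported as methylated in colorectal cancer showed no shared direction. Of 61 measured, 2 were raised 1.5-fold and 1 was lowered (3.28% and 1.64%, against 0.982% and 0.616% of all genes). On both arrays 18 were positive and 18 negative (29.5% each, against 28.0% and 28.4%), and the median was −0.03. The lowered one was PENK, an opioid precursor (−0.60 and −0.76). The labels' reading gave a median of −0.00 and 2 raised, the DNA repair enzyme MGMT (1.35 and 0.86) and the neuropeptide gene NPY (0.76 and 0.96), 3.28% against 2.44% of all genes. The 2 raised under the first reading were UCHL1, a ubiquitin hydrolase abundant in neurons (1.30 and 0.87), and NR3C1, the glucocorticoid receptor (1.44 and 0.70). There GPX3, a secreted glutathione peroxidase, had 0.15 and 1.36, and the epithelial cadherin CDH1 1.26 and 0.21, each mainly on 1 array. Among 40 DNA methylation and chromatin enzymes 0 were raised or lowered 1.5-fold under the first reading. In the labels' order 2, DNMT3B and the acetyltransferase KAT2B, were raised, 5.0% against 2.44% of all genes. With channel 2 as treated, DNMT1, the maintenance methyltransferase, had −0.38 and −0.31. The de novo enzymes differed between arrays in that reading, DNMT3A with −0.17 and 0.96 and DNMT3B with 1.00 and −1.27. With the sign of array 2 turned, DNMT3B averaged 1.13 and DNMT3A −0.56, each with a shared sign, and DNMT1 had no shared sign. DNMT3B was called raised 2-fold in the labels' order once block medians were set to 0.

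No gene was called 1.5-fold under the first reading among 28 p53 targets (median 0.01), 18 cholesterol synthesis genes (−0.11) or 3 metallothioneins (−0.05). ZMAT3 and PIDD1, both p53 targets, had 0.53 and 0.88, and 0.72 and 0.55; SQLE and CYP51A1 of sterol synthesis had −0.15 and −1.16, and 1.00 and 0.27. MT1G had 0.56 and 0.30. Of 30 tight junction and cadherin genes 1 was raised, CLDN10 (0.94 and 0.82), 3.33% against 0.982% of all genes, with a median of −0.06. The labels' reading gave medians of 0.00 for p53 targets, 0.19 for cholesterol synthesis, 0.13 for metallothioneins and 0.10 for junction genes. BAX was the 1 raised p53 target (0.62 and 1.01, 3.57%) and CDH11 the 1 raised junction gene (0.89 and 1.00, 3.33%). The share of all genes in that reading was 2.44%. Under the first reading ribosomal protein genes, a reference list, had a median of −0.14 over 69 genes, and housekeeping genes −0.10 over 15. Shifts of this size thus also occurred outside the pathways above. EEF1A1 among the housekeeping genes had −0.90 and −1.13. With median centring alone the ribosomal median was −0.29 under the first reading and 0.51 in the labels' order, where the main setting gave 0.01.

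**Figure D5:**
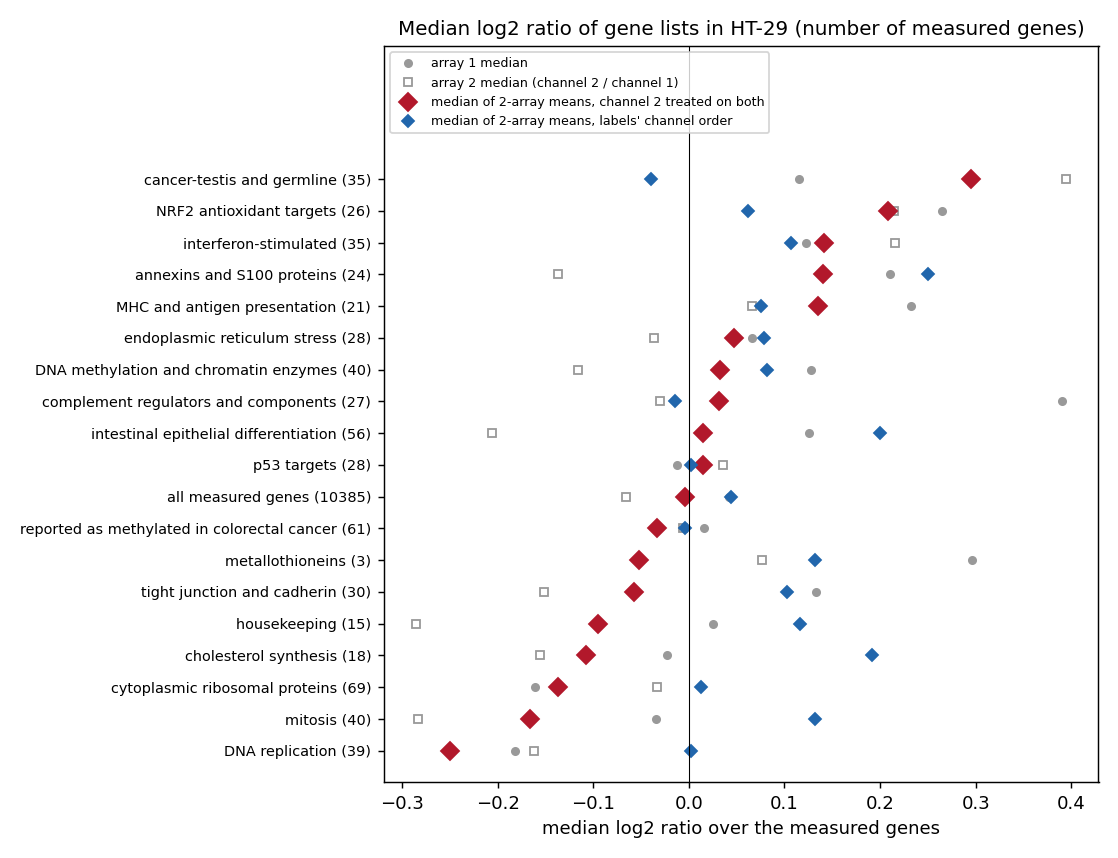
Median log2 ratio (x axis) of each gene list in HT-29 (y axis, number of measured genes in brackets). Diamonds give the median over genes of the mean of both arrays with channel 2 as treated (red) and in the labels' order (blue); grey marks give the median on each array as channel 2 over channel 1. Cancer-testis genes have the highest red diamond (0.30) and DNA replication genes the lowest (−0.25), while their blue diamonds lie at −0.04 and 0.00.

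In the labels' channel order a different set was raised, with channel 2 brighter on array 1 and channel 1 brighter on array 2. The 69 raised probes included 33 named genes. EDRF1, a regulator of erythroid genes, went from 1823 in the untreated to 7292 in the treated channel on array 1 and from 2100 to 6918 on array 2, with log2 ratios of 1.92 and 1.87, a mean of 3.72-fold. Its second probe gave 0.09 and −0.68 on the same reading. SUFU, an inhibitor of Hedgehog signalling, went from 1198 to 5085 and from 1370 to 3772 (1.96 and 1.57), and its second probe gave −0.03 and 0.35. CHPT1, an enzyme of phosphatidylcholine synthesis, had 1.85 and 1.79. ATP2B1, a plasma membrane calcium pump, had 2.10 and 1.24, and its second probe 0.56 and 0.13.

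NUDT5, a nucleotide sugar hydrolase, had 1.33 and 1.89, RAB5IF 1.501 and 1.25, LINC00470, a long non-coding RNA, 1.24 and 1.25, and TMEM175, a lysosomal ion channel, 1.23 and 1.57. The second probes averaged −0.10 for NUDT5 and 0.46 for RAB5IF in this reading, neither with a shared sign on both arrays. Of the 33 genes 10 had other measured probes, and for 2 of the 10 all probes agreed in sign. Of the 35 measured cancer-testis genes 0 were raised 1.5-fold in this reading and 1, MAGEA12, was lowered (−0.65 and −0.59), against 2.44% and 0.645% of all genes. DLG4, a postsynaptic scaffold protein, was the 1 lowered gene (−1.20 and −1.02), and its second probe read −0.36 and −0.82. With block medians set to 0 DLG4 had −0.74 and −0.71 and was not called. CEP63, ZNF407, CD53 and DLX6 followed it just outside the threshold, from −0.86 to −1.07. CEP63's second probe read 0.59 and 1.10 on this reading, the opposite direction, and that of ZNF407 averaged 0.05. Of the 179 probes lowered 1.5-fold, 83 (46.4%) lay in block row 12, against 8.94% of all measured probes.

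Probes without signal above background in the untreated channel on either array, and with treated signal and a 2-fold ratio on both, numbered 4 with channel 2 as treated (0.0177%) and 14 in the labels' order (0.0618%). The named ones under the first reading were CTSE, HLA-F and DHRSX. Those in the labels' order were DMD, the dystrophin gene, at least 2.05-fold, ZNF253, a zinc finger gene, at least 2.89-fold, THOC1 of the mRNA export complex, at least 2.26-fold, CAPZA1, an actin capping subunit, at least 1.42-fold, and BLTP2, at least 2.24-fold. After subtraction their untreated channel on array 2 read 1105 for ZNF253, 1063 for CAPZA1, 358.5 for DMD, 242.8 for BLTP2 and 122 for THOC1. Signal under the criterion thus does not mean that a transcript was absent. The other 3 DMD probes had means from 0.05 to 0.22 in this reading. Those probes, and the second probes of CTSE and HLA-F under the first reading, had untreated signal above background on both arrays. Local background differed between channels, with medians of 358 and 62.2 in channels 1 and 2 on array 1 and 351 and 569 on array 2, and its part in these counts was not tested.

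DLD-1 arrays were read the same way for comparison. With channel 2 as treated, 24 of the 26 raised probes were also measured in DLD-1. Of these, 11 (45.8%) were positive on both DLD-1 arrays, against 13.8% of all 18868 probes measured in both lines. At least 2-fold on both DLD-1 arrays were 5 of the 24, against 16 of the 18868. MAEL had 3.67 and 2.26 in DLD-1, XAGE1B 2.61 and 2.43, PAGE5 3.09 and 2.89, and GAGE12F 1.20 and 1.76. KRT20 was the 1 probe negative on both DLD-1 arrays, at −0.51 and −0.14. HLA-F, ISG15, DHRSX and CCT8L2 were positive on DLD-1 array 1 and negative on array 2. Read by the labels, 45 of 62 were positive on both (72.6%, against 35.7%), and 2 were at least 2-fold, against 72 of the 18868. Slides of both lines share printing positions and dye layout, so treatment, position and dye cannot be told apart in these counts.

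The labelled cell type was checked against marker genes. Of 14 markers of colonic epithelium 13 were above background in all 4 HT-29 channels, among them VIL1, EPCAM, CDX2 and KRT20, and CDX1 was in none. Markers of other cells were also above background by this criterion: 6 of 9 for fibroblasts, 4 of 7 for leukocytes, 2 of 4 for endothelium and 2 of 6 for male germ cells in all 4 channels, where 65.5% of all 12998 named genes were, while VIM, LUM, CD79A, CDH5 and DAZL were in none. The summed intensity of the germ-cell markers was 2761 and 3101 in channels 1 and 2 on array 1 and 12645 and 16051 on array 2, and the part of such signal in the results above was not tested. In RNA from a whole culture, fewer cells expressing a gene and less RNA per cell cannot be told apart.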

How the data were processed

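The authors deposited 1 scanner file per array with the linear intensity, local background and background SD of each channel of 30336 spots, and a log2 ratio. Checked on the files, that deposited ratio is log2 of channel 1 over channel 2 after local background subtraction, moved on each array by a single constant, and the series table holds its negative on all arrays alike. Scanner and software: not given in the sources used here. Background was corrected in limma 3.58.1 (R 4.3.3) by normexp with an offset of 50 and 1 loess curve was fitted per array, with control and bad spots at weight 0; 39 bad probes were left out. A channel was above background where intensity exceeded it by more than 2 background SD. The steps were tested on simulated data in which ratios were shuffled over probes on each array. That removes any pattern by block, so the test says nothing of position on the slide. Several probes of a gene were averaged for lists.

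Bounds compare channel means after quantile normalisation of the average intensity (Aquantile) with, per array, the higher of the lowest signal above background and the probe's own. Names came from the platform table (14200 probes with 1 symbol, 447 with several, 14993 with none) and, for 1394 probes, from descriptions, updated by RefSeq. Named genes were the 20 highest and 10 lowest by the smaller ratio of the 2 arrays with channel 2 as treated, the 10 and 5 in the labels' order, up to 4 per list by mean ratio of shared sign, the DNA methyltransferases and up to 10 switched-on genes per reading; other list members were chosen after their values were seen. The arrays, lists and markers were chosen with earlier results of these data known. Alternatives were other background corrections, scalings, filters and thresholds, the other reading, and leaving out each array.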

Additional observations from a re-analysis of the deposited data

Results flagged for a closer look

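Among the genes named by the rule above, 7 had both HT-29 arrays going one way and both DLD-1 arrays the other, under the reading named. Genes named from the lists were searched under the first reading only. The rest of the array was not searched and the share over all genes was not counted, so 7 is not a total. The difference between the lines was not tested for any of the 7 genes. Each value is the mean log2 ratio in HT-29 minus that in DLD-1. With channel 2 as treated, KRT20 differed by 2.03 (1.70 in HT-29, −0.33 in DLD-1). CIITA differed by 0.78 (0.54 and −0.24) and the complement component C5 by 0.89 (0.63 and −0.26). The opposite direction was found for SMN1, at −1.41 (−1.12 and 0.30), PDHX, at −1.48 (−0.99 and 0.48, with treated signal not above background on either HT-29 array), and the sterol enzyme SQLE, at −0.82 (−0.66 and 0.16). In the labels' order THOC1 differed by 2.02 as measured (1.76 and −0.27), but its untreated signal was not above background on either HT-29 array, so the rise there is known only as at least 2.26-fold.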

How the results depend on the processing

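With channel 2 as treated, the 26 raised probes became 61 with local background subtracted, 41 without a filter on dim probes, 16 in the deposited series table, 15 with both channels required above background, 11 with loess per block, 11 with block medians set to 0 and 329 at 1.5-fold; a single array gave 482 to 1100. The 3 lowered became 37, 15 without a filter, 1 with loess per block, 5 with block medians set to 0 and 131 at 1.5-fold; a single array gave 267 to 539. In the labels' order the 69 raised became 160 with subtraction, 106 with median centring, 108 in the series table, 41 with both channels above background, 35 with loess per block, 33 with block medians set to 0 and 533 at 1.5-fold (539 to 1100 on a single array). The 1 lowered became 15, 4 with median centring and 4 without a filter, 9 in the series table, 0 with loess per block and 179 at 1.5-fold (267 to 482). Switched-on probes rose from 4 to 96 and from 14 to 339 on detection alone, and fell to 2 at 3 background SD under the first reading; with block medians set to 0, chosen after seeing the data, they were 2 and 8, and on a single array 58 to 456 and 240 to 456. The cause of these changes was not tested.

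All 14 raised and 3 lowered named genes of the first reading kept their sign on both arrays wherever they had a value. This held under each background correction, scaling and filter. Of the 14, 7 were still past 2-fold with block medians set to 0 and 8 with loess per block. The deposited series table gave a value for only 7 of the 14, and 3 of those were past 2-fold. Requiring both channels above background also left only 7 of the 14. Under the other reading MAEL averaged −0.54, PHF8 −0.042, ANXA13 0.34 and PIR 0.084, and from the labels' side NUDT5 averaged −0.28, ZNF253 −0.41, LINC00470 −0.0017 and TMEM175 −0.17. Of 23 list medians, marker lists included, 17 kept their sign with block medians set to 0 and 13 under the other reading. No paired analysis was possible because each array already sets the treated RNA against the untreated and the line has 1 replicate.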
